A study of Mus musculus with 11 samples.

Results

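Pericytes are the contractile support cells that wrap the endothelium of small vessels, and this report follows 8 genes widely used to mark them in the mouse: Pdgfrb, Rgs5, Rgs4, Cspg4, Kcnj8, Abcc9, Mcam and Notch3. The genes were taken by symbol from the deposited expression tables. All 8 were found among 23238 genes, and all 8 were among the 18248 that passed a filter on low values. RNA was sequenced from cells that the labels call mouse cavernous endothelial cells, derived from the corpus cavernosum of the penis and grown in M199 medium with 20% fetal bovine serum, antibiotics and heparin. The 11 libraries were made after 5 days in normal glucose (n = 3), high glucose (n = 4) or high glucose with Hsp70, a heat shock chaperone (n = 4). The labels give no glucose concentration, no form or dose of Hsp70, and neither strain, age nor passage. They do not say that replicates were separate animals or cultures, so the p-values below reflect the spread among these libraries, which may be technical. The file names carry a set number from 2 to 5. Every group had 1 library in sets 3, 4 and 5, while set 2 lacked normal glucose and had 1 library of either other group. What a set stands for is not stated.

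Pericytes are drawn to growing vessels when endothelial PDGF-B binds the receptor encoded by Pdgfrb on their surface. Notch3 carries signals from endothelial Notch ligands to pericytes and smooth muscle. Rgs5 and Rgs4 speed the shut-off of G proteins behind vasoconstrictor receptors. Kcnj8 and Abcc9 encode the pore and the sulfonylurea receptor of the vascular ATP-sensitive potassium channel, which relaxes vessels when it opens. Cspg4 encodes the NG2 proteoglycan and Mcam the adhesion protein CD146. None of the 8 is exclusive to pericytes: fibroblasts express Pdgfrb, smooth muscle expresses Notch3 and Mcam, endothelium expresses Mcam, and glial progenitors express Cspg4. In bulk RNA fewer cells of a type and less RNA per cell cannot be told apart.

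Promoters of 4 members with patterns described below are shown: Rgs5 and Kcnj8 read higher in set 3, Cspg4 lower in set 3, and Rgs4 lower in set 2. Mcam and Abcc9, also called higher in set 3 and with 61 and 209 bases before the GENCODE gene, are not shown. Each run gives the bases before the RefSeq start site, 5′ to 3′ on the gene's strand (GRCm38.p6), stopped before the GENCODE gene where that begins earlier (179 bases for Cspg4, 250 for the others). Capitals mark 2 GC boxes in Cspg4 and 1 TATA box in Rgs4.
Rgs5 (chr1:169655251-169655500, plus strand): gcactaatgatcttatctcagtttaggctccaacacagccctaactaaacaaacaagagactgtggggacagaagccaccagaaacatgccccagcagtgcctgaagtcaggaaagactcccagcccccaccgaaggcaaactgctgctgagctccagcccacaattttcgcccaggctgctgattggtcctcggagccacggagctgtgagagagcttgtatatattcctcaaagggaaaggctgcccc
Kcnj8 (chr6:142571615-142571864, minus strand): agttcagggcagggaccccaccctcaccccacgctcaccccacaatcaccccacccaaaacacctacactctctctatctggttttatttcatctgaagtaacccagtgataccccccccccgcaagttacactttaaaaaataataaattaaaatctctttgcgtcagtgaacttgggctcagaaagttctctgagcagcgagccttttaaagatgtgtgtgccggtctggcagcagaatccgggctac
Rgs4 (chr1:169747643-169747892, minus strand): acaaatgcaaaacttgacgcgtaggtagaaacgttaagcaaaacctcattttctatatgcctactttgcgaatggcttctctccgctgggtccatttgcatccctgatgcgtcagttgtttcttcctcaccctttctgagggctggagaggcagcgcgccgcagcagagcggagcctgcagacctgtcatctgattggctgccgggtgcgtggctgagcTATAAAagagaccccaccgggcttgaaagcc
Cspg4 (chr9:56864854-56865032, plus strand): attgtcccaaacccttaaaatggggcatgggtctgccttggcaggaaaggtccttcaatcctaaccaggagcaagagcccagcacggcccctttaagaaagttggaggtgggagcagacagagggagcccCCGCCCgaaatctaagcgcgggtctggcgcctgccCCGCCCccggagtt

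RefSeq windows of 250 bases before the start were at hand for 7 of the 8 members; those of Mcam, Cspg4 and Abcc9 reach into the GENCODE gene by 189, 71 and 41 bases. A search of both strands for the GC box (GGGCGG), the RBPJ core of Notch signaling (TGGGAA), the TATA box (TATAAA) and the CArG box of smooth muscle genes found no overlapping matches in these 7 windows. Mcam held 5 GC boxes, Notch3 4, Cspg4 2 and Abcc9 1, while Rgs5, Rgs4 and Kcnj8 held 0; 32.7% of all 32851 promoter windows of this length held at least 1. The GC content was 73.6% for Mcam, 68.8% for Notch3 and 66.8% for Abcc9 against 53.6% for Rgs5, 53.6% for Rgs4 and 49.2% for Kcnj8, with a median of 52.4% over all windows. Rgs4 held 1 TATA box (12.4% of windows held one) and Abcc9 1 RBPJ core (21.6%). No member held a CArG box (1.5%). These matches describe letters only. Windows of the members called higher in set 3 thus ran from 49.2% GC for Kcnj8, below the median of all windows, to 73.6% for Mcam.

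Several members lie side by side in the genome (mm10, GENCODE M21). Rgs5 (chromosome 1, 169655501 to 169695813, plus strand) and Rgs4 (169741477 to 169747642, minus strand) are separated by 45.7 kb. Kcnj8 (chromosome 6, 142564837 to 142571614) and Abcc9 (142587862 to 142702315), both on the minus strand, are separated by 16.2 kb. Mcam (chromosome 9, 44134469 to 44142727) and Cspg4 (56865033 to 56899870) share only the chromosome, and Notch3 lies on chromosome 17 (32120820 to 32166852). Annotated antisense genes overlap Abcc9 (5330439B14Rik), Mcam (Gm10687) and Notch3 (Gm17276). The library kit kept the strand, but whether counting used it is not given, so reads of those 3 members and their antisense partners may not be separated.

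Normalized counts summed to 24.8 to 27.8 M per library. The endothelial label was matched unevenly. Pecam1, Tie1 and Cldn5, endothelial genes with some of the smallest p-values between set 3 and the rest, read low outside set 3. Their log2 medians were 3.56, 0.58 and 0.08 in those 8 libraries and 9.01, 6.38 and 4.76 in set 3. The fibroblast gene Dcn, with the smallest p of its list there, had medians of 15.34 and 17.57. Col1a1 and Col1a2, picked after their values were seen, had 14.37 and 15.01 outside set 3 and 14.23 and 15.04 in it. Of 12 fibroblast markers 4 were called higher in set 3 and 0 lower. Of the 16 endothelial markers, 12 were called higher in set 3 and 4 read lower without being called: Cd34, Eng, Flt1 and Tek, with medians of 12.14, 11.24, 6.84 and 6.02 outside set 3 and 11.74, 10.93, 6.51 and 5.41 in it. These 4 were picked after their values were seen. In set 3 limma called 1537 of 18248 genes different from the other sets, 1102 higher and 435 lower. The filter asked for 3 libraries, which set 3 alone could supply, as it did for Cldn5 (at most 0.24 elsewhere). A gene low only in set 3 was kept by the other 8 libraries. The counts higher and lower are therefore not a fair balance of directions. That contrast was chosen with earlier results of these data known. Its 3 libraries share 1 set and were treated as independent, so the spread from set to set does not enter these p-values. All results on set 3 are therefore given apart from the comparisons of glucose and Hsp70, which were made within sets.

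Pdgfrb was by far the most abundant member per exon length in every library, and the order below it depended on the set. Outside set 3 the median normalized count per kb of exon was 878 for Pdgfrb (833 to 1107 over 8 libraries). Rgs4 followed at 121 (27.2 to 163), Kcnj8 at 71.9 (41.1 to 84.8), Notch3 at 62.1 (29.3 to 70.6) and Abcc9 at 61.3 (27.2 to 96.2). The pooled ranges of these 4 overlapped, but Rgs4 was second in every library of sets 4 and 5 (102 to 163). In set 2 it read 46.9 in high glucose and 27.2 with Hsp70, below the other 3 of these genes. The order of Kcnj8, Notch3 and Abcc9 changed among libraries. Cspg4 stood at 30.8 (23.3 to 38.0), Mcam at 15.1 (11.1 to 23.9) and Rgs5 at 8.55 (5.30 to 16.9). Each of these 3 overlapped its neighbour in the order, and every Pdgfrb value lay above every value of the others.

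In set 3 the medians per kb were 1032 for Pdgfrb, 272 for Kcnj8, 255 for Rgs4, 216 for Mcam, 180 for Abcc9, 96.8 for Rgs5, 40.1 for Notch3 and 9.88 for Cspg4. The ranges of Kcnj8 (222 to 299) and Rgs4 (235 to 271) overlapped, as did those of Mcam (205 to 216) and Abcc9 (106 to 212) and of Abcc9 and Rgs5 (62.0 to 130). Mcam thus stood among the ATP-sensitive channel genes and Rgs4, while Cspg4 was last in all 3 libraries. Outside set 3 the lowest member was Rgs5 in 6 libraries and Mcam in 2. The classical pericyte receptor was not the main PDGF receptor in any library. Per kb Pdgfra, the receptor typical of fibroblasts, exceeded Pdgfrb by 2.64 to 5.80 times over the 11 libraries.

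**Figure D1:**
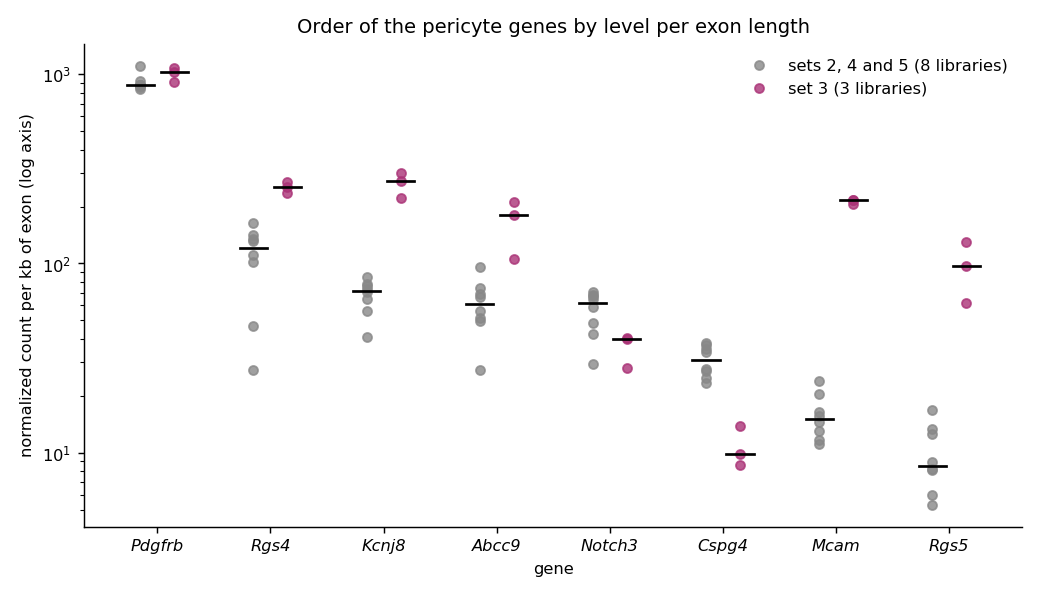
Normalized count per kb of merged exon (vertical, log axis) for each of the 8 genes (horizontal), with 1 point per library and bars at medians; grey, sets 2, 4 and 5 (8 libraries), purple, set 3 (3 libraries). Pdgfrb has medians of 878 and 1032, Mcam moves from a median of 15.1 to 216, and Cspg4 from 30.8 to 9.88.

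Set 3 differed from the other sets in a direction that depended on the member. Of the 8 members 4 were higher (Mcam, Rgs5, Kcnj8 and Abcc9), 1 was lower (Cspg4) and 3 did not pass (Rgs4, Notch3 and Pdgfrb; limma, adjusted p over all genes). Over all genes tested 6.04% were called higher and 2.38% lower, or 8.42% in either direction. Genes that passed the filter through set 3 alone count in these shares. At an unadjusted p under 0.05 stood 7 of the 8 members and 19.5% of all genes. Every library of set 3 lay above every other library for 5 members (8.14% of all genes) and below for 1 (3.85%). The median difference of the members was 1.43 on the log2 scale, and that of all genes tested was 0.00 to 2 decimals.

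Mcam, the adhesion protein CD146 of pericytes, smooth muscle and endothelium, gave the largest difference of the 8. Its log2 values, log2(normalized count + 1), were 9.50 in normal glucose, 9.50 in high glucose and 9.42 with Hsp70 in set 3. The other 8 libraries ran from 5.26 through a median of 5.68 to 6.34. The groups of sets were thus far apart, at a log2 difference of 3.78 (SE 0.227, 95% interval 3.28 to 4.27, adjusted p = 3.36e-06, limma).

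Rgs5, the G protein regulator widely used as a pericyte marker, was the next. In set 3 it read 8.14 in normal glucose, 9.21 in high glucose and 8.78 with Hsp70. The other libraries ran from 4.65 through 5.32 to 6.28, all below set 3. The log2 difference was 3.32 (SE 0.232, 95% interval 2.81 to 3.82, adjusted p = 4.85e-06, limma).

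The subunits of the vascular ATP-sensitive potassium channel were both higher in set 3. Kcnj8, the pore, read 9.14, 9.58 and 9.44 in normal glucose, high glucose and Hsp70 of set 3 against 6.73 to 7.76 elsewhere (median 7.53), a log2 difference of 1.98 (SE 0.210, adjusted p = 8.12e-05, limma). Abcc9, the sulfonylurea receptor, read 9.80, 10.56 and 10.79 against 7.84 to 9.66 (mean 8.93), a difference of 1.44 (SE 0.336, adjusted p = 0.0207, limma). The Abcc9 call rested on a narrow margin: it was lost with set 2 left out (1.39, adjusted p = 0.0823) and without high glucose replicate 2 (1.35, 0.160) or Hsp70 replicate 2 (1.05, 0.195). The pancreatic forms of this channel were nearly silent: Kcnj11 stood at log2 values of 0.00 to 1.59 in the 11 libraries and Abcc8 at 0.00 to 2.40, against at least 6.73 and 7.84 for Kcnj8 and Abcc9.

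Cspg4 moved the other way. The NG2 proteoglycan gene read 7.37, 6.70 and 6.89 in normal glucose, high glucose and Hsp70 of set 3, below all other libraries, which ran from 8.12 through 8.52 to 8.83. Its log2 difference was -1.55 (SE 0.175, 95% interval -1.93 to -1.17, adjusted p = 0.000131, limma). Since Mcam and Cspg4 moved apart, the log2 ratio of Mcam to Cspg4 per kb was 3.97, 4.65 and 4.37 in set 3 and between -1.77 and -0.19 in the other libraries.

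Pdgfrb and the remaining members did not pass. Pdgfrb, the PDGF-B receptor, read 12.53, 12.28 and 12.47 in set 3 against 12.16 to 12.57 (median 12.23) elsewhere, and the sets overlapped. Its difference was 0.15 (95% interval -0.12 to 0.43, adjusted p = 0.582, limma), so the interval holds no change above 0.43. Notch3 gave -0.60 (SE 0.249, adjusted p = 0.194), at 7.83, 8.36 and 8.34 in set 3 against 7.89 to 9.16, with overlap. Rgs4 gave 1.42 (SE 0.501, adjusted p = 0.129, limma), although its 3 values in set 3 (9.63, 9.71 and 9.51) all lay above the others (6.42 to 8.98).

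Rgs4 had the widest error of the members in this comparison, and it was not level among the other sets. Set 2 held its 2 lowest libraries, at 7.19 in high glucose and 6.42 with Hsp70, whereas sets 4 and 5 ran from 8.31 to 8.98. Set 2 lay 1.93 below sets 4 and 5 on the log2 scale (difference -1.93, SE 0.215, adjusted p = 0.0102, limma; a contrast added after the values were seen, called for 1.44% of all genes, 0.932% lower). In it 4 of the 8 members and 17.9% of all genes had an unadjusted p under 0.05. No other member passed, the nearest being Kcnj8 at -0.71 (adjusted p = 0.0557) and Cspg4 at 0.50 (0.0996). With set 2 left out the difference of set 3 was 0.97 for Rgs4 (adjusted p = 0.00265, limma) and -0.78 for Notch3 (0.0351). Without Hsp70 replicate 1, a library of set 2, both also passed, at 1.15 (0.0477) and -0.72 (0.0481). Between sets 5 and 4 no member passed. Abcc9 came nearest at 0.76 (set 5 minus set 4, adjusted p = 0.346), and limma called 0 of 18248 genes there (0%), with 2769 (15.2%) and none of the members at an unadjusted p under 0.05.

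**Figure D2:**
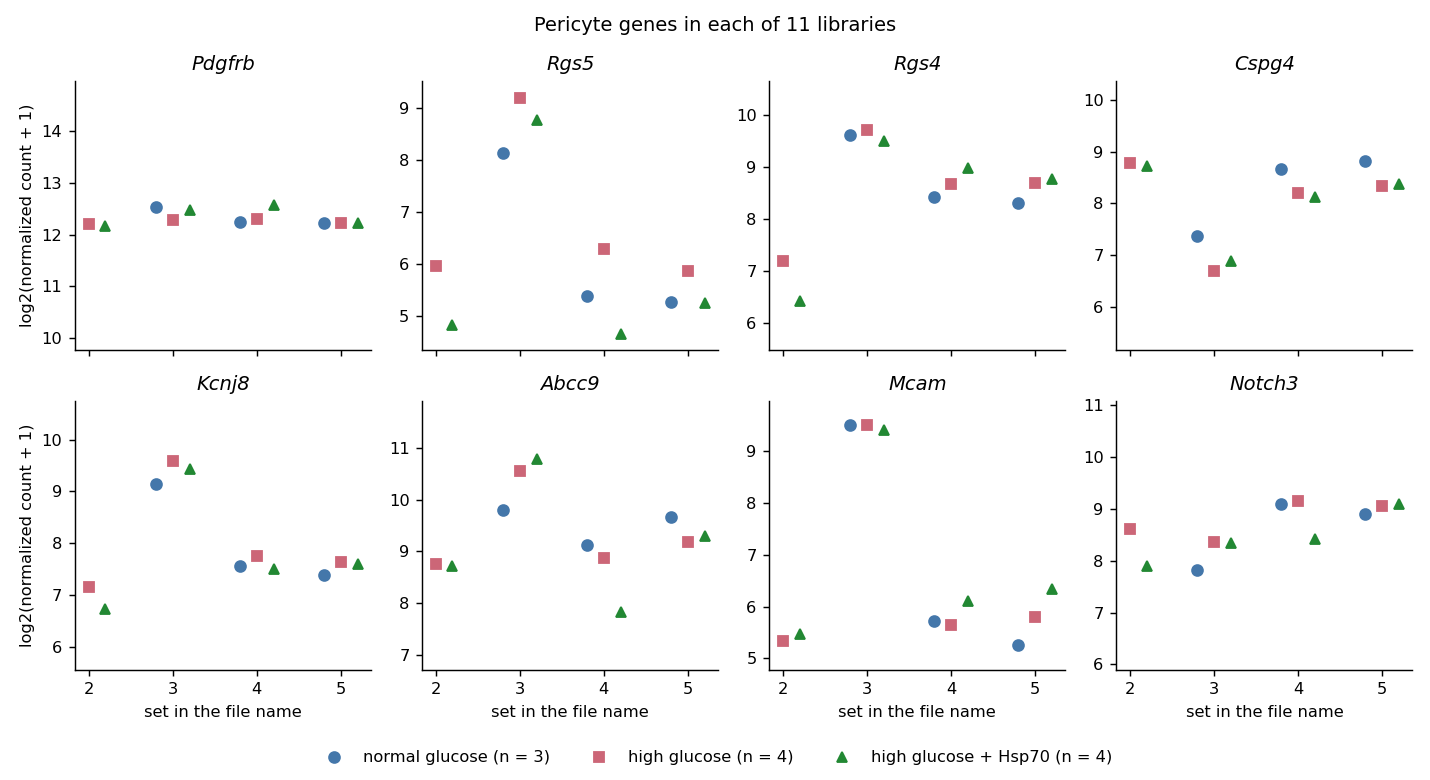
Log2(normalized count + 1) of the 8 genes in each library (vertical, each panel spans the same number of log2 units) by set in the file name (horizontal), with the group as colour and shape. Set 3 stands above the rest for Mcam (9.42 to 9.50 against 5.26 to 6.34) and below for Cspg4 (6.70 to 7.37 against 8.12 to 8.83), and for Pdgfrb the sets overlap (12.28 to 12.53 against 12.16 to 12.57).

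Neighbouring genes did not keep a fixed ratio. Per kb the log2 ratio of Rgs5 to Rgs4 was -2.04, -1.05 and -1.28 in set 3, -1.81 and -2.19 in set 2, and between -4.94 and -2.96 in sets 4 and 5, so that Rgs4 exceeded Rgs5 in all 11 libraries. The ratio of Kcnj8 to Abcc9 was closer, between -0.57 and 1.38, and changed sign among libraries. The gene on the other side of Rgs5, the kinetochore gene Nuf2, read 8.33, 7.45 and 7.47 in set 3, within its range of 7.15 to 8.49 elsewhere. Ldhb, the lactate dehydrogenase gene next to Kcnj8, read 10.45, 10.69 and 10.60 in set 3 against 9.96 to 10.54 elsewhere. These neighbours were chosen by position.

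Other genes of mural cells were called in 1 direction in set 3. Of 28 tested (30 listed), 6 were higher and 0 lower by limma, beside 6.04% and 2.38% of all genes. Above 0 stood 24 (49.4% of all genes), and the median difference was 0.45. The lowest were P2ry14 at -1.32 (95% interval -2.23 to -0.42, adjusted p = 0.0738, limma) and Art3 at -0.72 (-1.25 to -0.20, 0.0939), neither of them called. Des, the intermediate filament desmin, gave 4.79 (SE 0.253, adjusted p = 1.22e-06), from log2 values of 4.56 to 5.94 outside set 3 to 9.66 to 10.02 in it. Ndufa4l2, a mitochondrial gene high in pericytes, gave 2.01 (SE 0.213, adjusted p = 8.23e-05), the muscle protein Pdlim3 3.17 (0.472; 0.000934) and the interferon-induced Ifitm1 1.87 (0.334; 0.00366). The Notch3 target Heyl gave 1.62 (adjusted p = 0.129). Of the transcription factors of the mural lineage, Tbx18 gave -0.40 (95% interval -0.84 to 0.05), Ebf1 0.07, Foxf2 0.34 (0.02 to 0.67) and Foxc1 0.28, none with an adjusted p under 0.05. Higd1b, a gene of brain pericytes, was listed at 0 in all 11 libraries. P2ry14, Art3, Heyl and the transcription factors were picked after their values were seen.

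Some ligand and receptor partners of the members also differed in set 3. Pdgfb, the endothelial ligand of Pdgfrb, read 5.43 to 5.50 in set 3 against 0.00 to 1.74 elsewhere (difference 4.99, SE 0.442, adjusted p = 2.44e-05, limma), and it was the 1 gene called of 7 PDGF genes, Pdgfrb included. Pdgfra gave 0.06 (adjusted p = 0.909). Of 16 Notch pathway genes, Notch3 included, 4 were higher and 0 lower: the endothelial receptor Notch4 (2.24, SE 0.371, adjusted p = 0.00197), the ligand Dll4 (4.24, 0.713; 0.00222), the feedback inhibitor Nrarp (2.98, 0.625; 0.00928) and the target Hey1 (1.75, 0.422; 0.0212). The median of the 16 was 0.23, with 8 above and 8 below 0. Over all genes 6.04% were called higher and 2.38% lower. Outside set 3 the medians of Pdgfb, Dll4 and Nrarp were 0.17, 0.96 and 0.93, near 0. Undetected genes were listed differently by set, and set 3 alone could carry such low genes through the filter. A list of 9 tested regulators of G proteins held R4 family genes, Rgs5 and Rgs4 among them, and Rgs17 of the RZ family. Besides Rgs5, Rgs2 was higher (1.53, SE 0.145, adjusted p = 3.95e-05) and Rgs17 lower (-0.85, 0.221; 0.0321).

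Many markers of other cells also differed in set 3, and their part in the differences of the members was not tested. Over all genes 6.04% were called higher and 2.38% lower. Some counted markers were near 0 outside set 3, with medians of 0.10 for Tyrobp, 0.19 for C1qa, 0.70 for C1qb and 0.65 for C1qc. Cldn5 and Robo4 had 0.08 and 0.28. Set 3 alone could carry these 6, named for their low medians, through the filter. Of 13 macrophage and leukocyte markers 12 were higher, and their summed level was 12.28 to 12.54 (log2) in set 3 against 9.12 to 9.79. Of 16 endothelial markers 12 were higher, though the summed level was 12.88 to 12.92 against 12.71 to 13.58. Of 10 Schwann cell markers 6 were higher, with sums of 12.70 to 13.33 against 11.70 to 12.27. Of 12 fibroblast markers 4 were higher (Dcn, Thy1, Lum and Pi16), with sums of 18.43 to 18.71 against 17.42 to 18.13. Smooth muscle markers were split: Myh11, the smooth muscle myosin, was higher (1.82, SE 0.472, adjusted p = 0.0360) and Mylk, the kinase that activates it, lower (-0.65, 0.167; 0.0308), with the other 10 not called and sums of 15.16 to 15.30 against 15.01 to 15.55. No marker of these 5 lists was at 0 in every library of set 3.

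**Figure D3:**
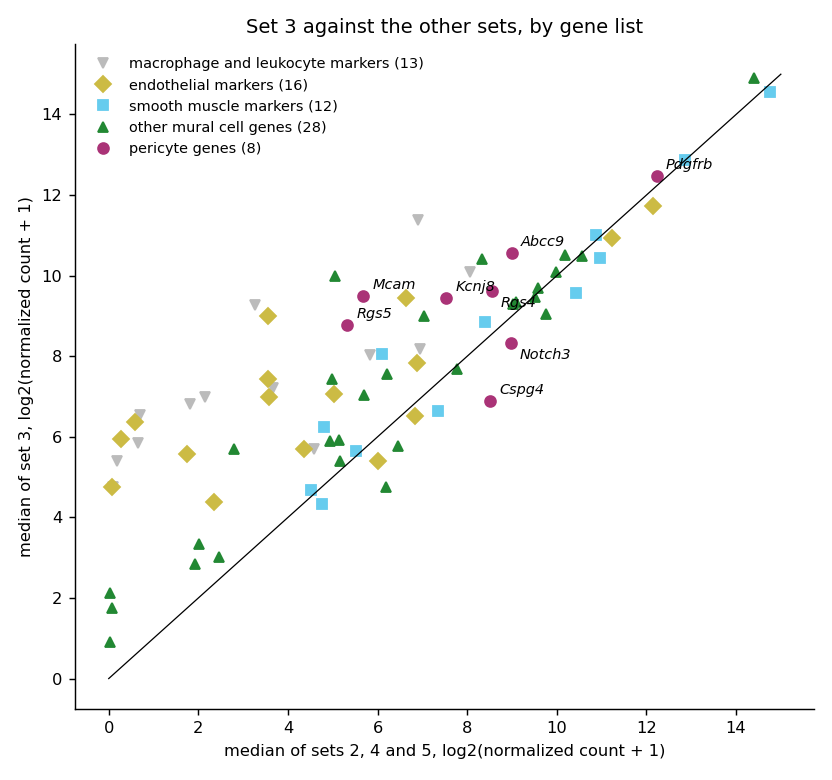
Median log2(normalized count + 1) in set 3 (vertical) against the median in sets 2, 4 and 5 (horizontal) for the tested genes of 5 lists, with the number of genes in the key and a line of equality. Mcam and Rgs5 lie well above the line (9.50 against 5.68, and 8.78 against 5.32), Pdgfrb lies on it and Cspg4 below it, while macrophage markers lie above it.

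The comparison of high with normal glucose asks what glucose did to these genes, and no member passed. Limma with the set as a block called 0 of 18248 genes (0%), with 636 at an unadjusted p under 0.05. That level held 3.49% of all genes and 3 of the 8 members: Rgs5, Kcnj8 and Cspg4. The median difference of the members was 0.24, beside 0.00 to 2 decimals for all genes.

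Rgs5 gave the largest difference of the members. Its log2 values in normal and high glucose were 8.14 and 9.21 in set 3, 5.37 and 6.28 in set 4, and 5.26 and 5.86 in set 5, so high glucose read higher in every set, by 1.07, 0.91 and 0.60. The fitted difference was 0.89 (SE 0.268, 95% interval 0.29 to 1.49, adjusted p = 1.00, limma). Group means were 6.83 ± 1.60 (SD, n = 4) and 6.26 ± 1.63 (SD, n = 3), and the groups overlapped widely across sets.

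Cspg4 read lower in high glucose in every set. Its values in normal and high glucose were 7.37 and 6.70 in set 3, 8.67 and 8.21 in set 4, and 8.83 and 8.33 in set 5. The fitted difference was -0.53 (SE 0.127, 95% interval -0.81 to -0.24, adjusted p = 1.00, limma). Kcnj8 read higher by 0.43, 0.22 and 0.27 in sets 3, 4 and 5 (fitted 0.34, SE 0.139, adjusted p = 1.00).

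Over all genes 11.3% were higher and 14.3% lower in all 3 sets. Among the members 4 were higher (Rgs5, Rgs4, Kcnj8 and Notch3) and 1 lower (Cspg4). With 3 sets an exact test that flips signs within sets cannot give a two-sided p under 0.25. It gave 0.25 for each of these 5, as it must for any gene with 1 sign in all 3 sets. Rgs4 (0.34, 95% interval -0.11 to 0.79), Notch3 (0.31, -0.18 to 0.79), Mcam (0.17, -0.33 to 0.67), Pdgfrb (-0.04, -0.32 to 0.24) and Abcc9 (-0.01, -0.80 to 0.78) all had intervals across 0. For Abcc9 the sets went apart, at 0.76 in set 3 and at -0.24 and -0.47 in sets 4 and 5. The term for set 3 against the others gave 1.21 (SE 0.678, adjusted p = 1.00, limma), and there 0 of the 8 members and 1.4% of all genes had an unadjusted p under 0.05. Among markers of other cells Lum (0.64) and Flt1 (-0.61) reached that level for high against normal glucose, and their part in the member values was not tested.

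Hsp70 was compared with high glucose alone within 4 sets, to ask what the added chaperone did. Again 0 of 18248 genes (0%) were called by limma, with 305 at an unadjusted p under 0.05. That level held 1.67% of all genes and 1 of the 8 members, Rgs5. The members had a median difference of -0.17, with 3 above and 5 below 0.

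Rgs5 read lower with Hsp70 in all 4 sets. High glucose and Hsp70 stood at 5.95 and 4.81 in set 2, at 9.21 and 8.78 in set 3, at 6.28 and 4.65 in set 4, and at 5.86 and 5.25 in set 5. The differences were -1.14, -0.43, -1.63 and -0.61. The fitted difference was -0.95 (SE 0.240, 95% interval -1.49 to -0.41), the gene ranked 7 of 18248 by its p-value, and it did not pass the adjustment (adjusted p = 0.999, limma). The exact sign-flip test gave p = 0.125, the smallest that 4 sets allow, as it must for any gene with 1 sign in all 4. Group means were 5.87 ± 1.96 (SD, n = 4) with Hsp70 and 6.83 ± 1.60 (SD, n = 4) without, a gap smaller than either SD, since set 3 stood apart in both groups. This comparison and that of high with normal glucose share the high glucose libraries.

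Kcnj8 was the other member that read lower in all 4 sets, by -0.44, -0.14, -0.26 and -0.05 in sets 2 to 5 (fitted -0.22, SE 0.125, adjusted p = 0.999, limma). Over all genes 4.42% were lower and 3.89% higher in all 4 sets. Notch3 gave -0.72 in set 2 and -0.74 in set 4 but -0.02 and 0.06 in sets 3 and 5 (fitted -0.35, 95% interval -0.79 to 0.08). Abcc9 gave -1.04 in set 4, where Hsp70 replicate 3 read 7.84, its lowest value in any library, and -0.05, 0.24 and 0.11 in sets 2, 3 and 5. Without that library its fitted difference was 0.15. Mcam gave 0.27 (-0.18 to 0.72), Pdgfrb 0.11 (-0.14 to 0.35), Cspg4 0.02 (-0.23 to 0.28) and Rgs4 -0.15 (-0.55 to 0.26). The interval for Cspg4 thus left out changes beyond 0.28 in either direction, whereas that for Abcc9 (-0.89 to 0.52) was wide. Markers of other cells that reached an unadjusted p under 0.05 here were Pecam1 (-0.71), Vwf (1.15), Adgre1 (-1.06) and Ptprc (-1.30), with summed macrophage levels of 9.12 to 12.28 with Hsp70 and 9.23 to 12.54 in high glucose. Their part in the member values was not tested.

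**Figure D4:**
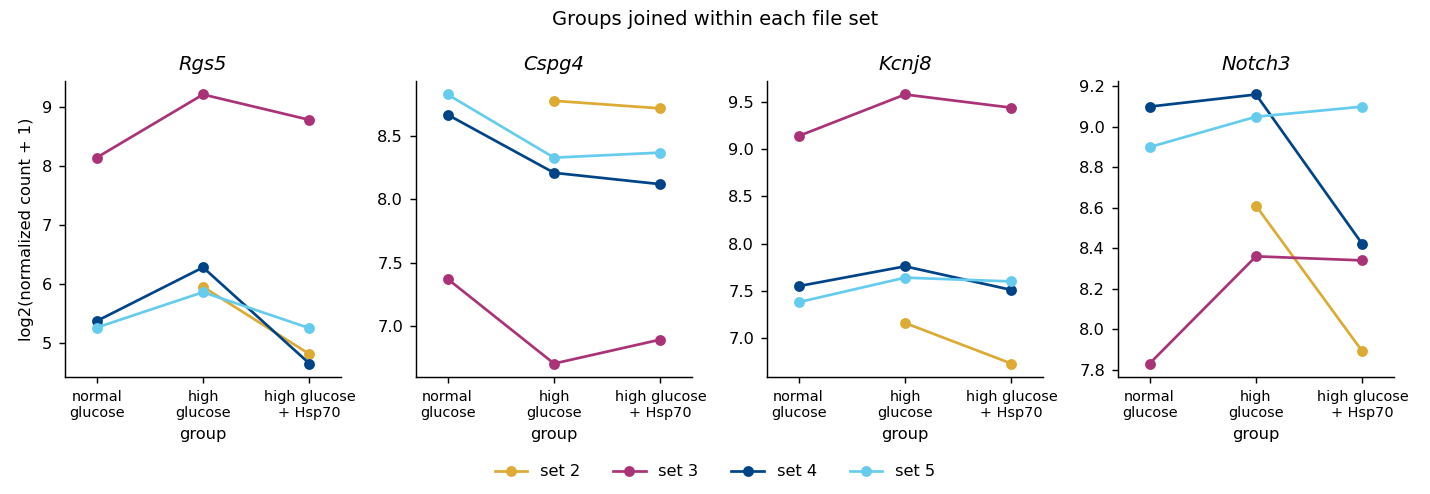
Log2(normalized count + 1) (vertical) of 4 members in normal glucose, high glucose and high glucose with Hsp70 (horizontal), with libraries of 1 set joined by a line. Rgs5 and Kcnj8 peak in high glucose in sets 3, 4 and 5, and Cspg4 is highest in normal glucose in the same 3 sets; set 2 held no normal glucose library.

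Set against normal glucose, Hsp70 in high glucose asks whether treated cells stood at the level of cells kept in normal glucose for the same 5 days. Limma called 0 of 18248 genes (0%) and no member, with 587 genes at an unadjusted p under 0.05 (3.22% of all genes and 1 of the 8 members, Cspg4). Cspg4 gave -0.51 (SE 0.127, 95% interval -0.79 to -0.22, adjusted p = 1.00), from -0.47, -0.54 and -0.46 in sets 3, 4 and 5. Its exact sign-flip p was 0.25, the smallest that 3 sets allow, which any gene with 1 sign in all 3 must get. It was the 1 member lower in all 3 sets (9.92% of all genes were), and no member was higher in all 3 (7.62%). For Cspg4 both arms of high glucose thus read about equally far below normal glucose. These comparisons share the normal glucose libraries.

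Rgs5 stood close to normal glucose on average, at -0.06 (95% interval -0.67 to 0.54), but with 0.64, -0.72 and -0.01 in sets 3, 4 and 5. Mcam gave 0.44 (-0.06 to 0.95) with -0.08, 0.38 and 1.08 in the 3 sets. Abcc9 spread most, from 0.99 in set 3 to -1.29 in set 4 (fitted -0.20, SE 0.345). Pdgfrb gave 0.06, Kcnj8 0.12, Rgs4 0.20 and Notch3 -0.05, each with an interval across 0. Markers of other cells with an unadjusted p under 0.05 here were Flt1 (-0.69), Cd14 (0.40) and Adgre1 (-1.16), and their part in the member values was not tested.

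**Figure D5:**
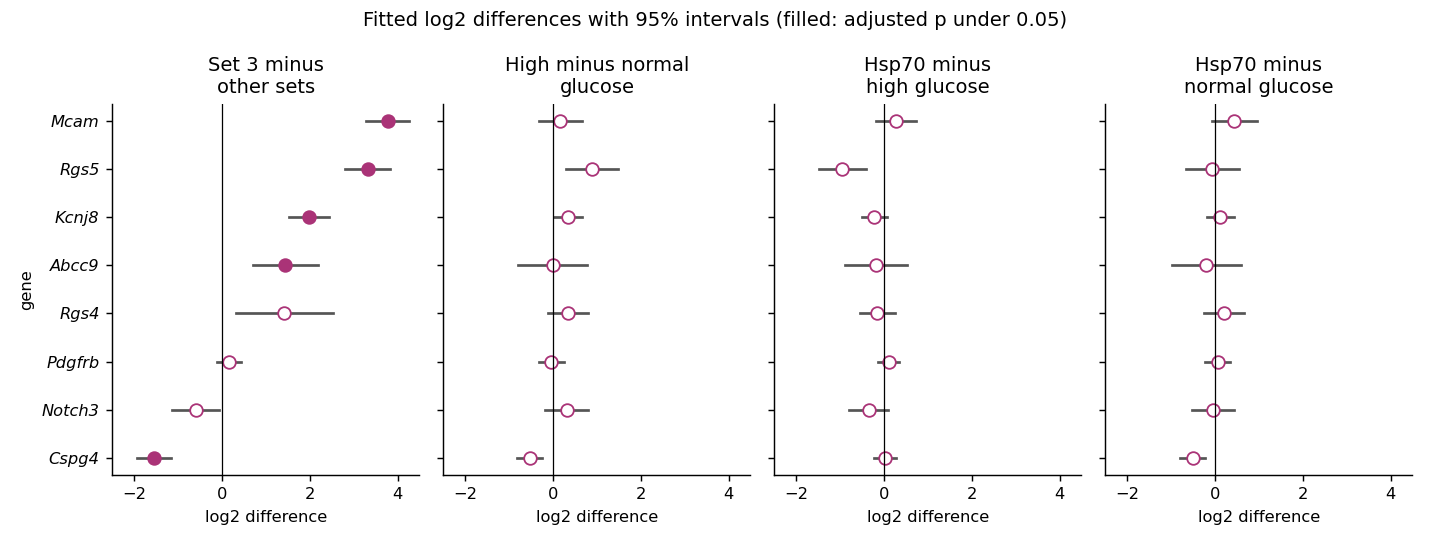
Fitted log2 differences (horizontal) with 95% intervals from limma for the 8 members (vertical) in 4 comparisons; filled points have an adjusted p under 0.05. Only the comparison of set 3 with the other sets has filled points (Mcam 3.78, Rgs5 3.32, Kcnj8 1.98, Abcc9 1.44 and Cspg4 -1.55).

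Other mural genes and partners did not pass in the group comparisons either. Of the 28 mural genes 0 were called in each, with 2, 1 and 0 at an unadjusted p under 0.05 for high against normal glucose, Hsp70 against high glucose and Hsp70 against normal glucose. Ifitm1 (0.57, SE 0.199) and the sphingosine receptor S1pr3 (0.39, SE 0.159) were those of the first comparison and Des (0.43, SE 0.178) that of the second. Of 7 PDGF genes and 16 Notch pathway genes 0 reached that level in any of the 3. Among the G protein regulators Rgs16 gave -0.51 (SE 0.159) for Hsp70 against normal glucose. The adjusted p of each of these was 0.999 or 1.00 (limma).

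Genes whose log2 values ran most like those of a member over the 11 libraries are listed as a description, since libraries of a set share their set. Only tested genes outside the members with a mean at or above the median of the tested genes were searched. For Mcam these were the matrix genes Postn (Pearson r 0.991), Prelp (0.989) and Sod3 (0.982). With set means taken out the values were 0.655, 0.476 and 0.617. For Rgs5 they were Cd36 (0.975), Mrgprf (0.975) and Csgalnact1 (0.971), at 0.948, 0.865 and 0.740 with set means out. For Kcnj8 they were Cyp2f2 (0.994), Cxcl5 (0.990) and Sfrp2 (0.990), at 0.893, 0.719 and 0.653 with set means out. For Cspg4 they were Piezo1 (0.975), Hmga2 (0.967) and Sox9 (0.965), at 0.867, 0.942 and 0.642. Rgs4 was closest to G530011O06Rik (0.988), Dram1 (0.988) and Lrrc61 (0.979), at 0.937, 0.933 and 0.76 with set means out. Abcc9 was closest to Parm1 (0.960), Fgl2 (0.959) and Pde4d (0.955), at 0.958, 0.901 and 0.841. Notch3 was closest to Sned1 (0.972), Tmem2 (0.944) and Exoc4 (0.940), at 0.925, 0.868 and 0.909. Pdgfrb, which hardly varied, was closest to Wdr24 (0.914), Bre (0.911) and Il11ra2 (0.908), at 0.868, 0.943 and 0.822 with set means out. No gene outside the members appeared for more than 1 of them.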

How the data were processed

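The authors deposited 1 table per library with log2 values per gene. The values, none of them below 0, were read as log2(normalized count + 1). Low values were not whole-number counts in every library: outside set 3 Cldn5 ran from 0.00 to 0.24. TopHat, edgeR and the build mm10 appear in the submitters' processing notes, with neither versions nor roles. How the authors normalized, which annotation they used and whether counting was stranded is not given in the sources used here. The library kit was Clontech SMARTer Stranded, per the labels' protocols. Exact zeros made up 11.85% of genes in sets 4 and 5 and 21.16% to 25.86% in sets 2 and 3. Many undetected genes held 0 in sets 2 and 3 but small values above 0 in sets 4 and 5, for a reason not given. The floor thus differed by set, which touches genes near 0 in comparisons between sets.

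Of 23282 rows, 44 repeated a symbol and were dropped in favour of the row with the higher mean. A gene was tested if 3 or more libraries reached a normalized count of 1. Gucy1a1 and Gucy1b1 were matched by their older symbols in RefSeq. Differences came from limma 3.58.1 in R 4.3.3 (trended prior, robust variance), adjusted by Benjamini-Hochberg at 0.05 over 18248 genes: group and file set as terms for the group comparisons, group and an indicator of set 3 for the set comparison. Merged exon lengths came from GENCODE M21, which named 95.5% of the genes. The scripts were tested on simulated data. The members, lists and tests were chosen with earlier results of these data known. Named genes are the 8 members and up to 4 genes of a list by smallest unadjusted p (2 where none passed). Pdgfb, Pdgfra, Kcnj11 and Abcc8 are also named, as are the 3 genes most like each member. Those 3 were sought among tested genes outside the members with a mean at or above the median of the tested genes. Others were chosen by position or after their values were seen, as said where they are named. Alternatives covered the block, filter, scaling, weights, pseudocount, sets and each library in turn.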

Additional observations from a re-analysis of the deposited data

Results flagged for a closer look

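In groups of 4 libraries, 3 of 16 combinations of member and group had a library far from the other 3 by Dixon's criterion. For 4 values of 1 normal population chance meets it in about 1 of 20, a rate that does not hold across sets. The flags came from 2 libraries, both of set 3. Each group of 4 held 1 library of set 3, so the flags restate the difference of that set given above. High glucose replicate 2 read 9.21 for Rgs5, where the others read 5.86 to 6.28, and 9.50 for Mcam, where the others read 5.33 to 5.80. Hsp70 replicate 2 read 8.78 for Rgs5, where the others read 4.65 to 5.25.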

How the results depend on the processing

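The calls of Mcam, Rgs5, Kcnj8 and Cspg4 in set 3 held under all 23 alternatives, and 4 to 7 members were called; Abcc9 was lost under 3, and Rgs4 and Notch3 were gained under 5 and 3. The genes called there, 1537, became 2317 with all 4 sets as terms, 986 without set 5, 6150 with array weights (1 of 2 weight fits stopped before its tolerance) and 722 to 2102 with 1 library left out (722 without high glucose replicate 2, 794 without Hsp70 replicate 2). In the group comparisons 0 members were called under any of 21 alternatives; array weights called 21 genes for high against normal glucose and 1 for Hsp70 against normal glucose. File set was the block because differences within sets were asked for, and no label says that it pairs samples; deviations from group means correlated at 0.285 to 0.594, 0.0586 to 0.691 and 0.0219 to 0.458 within sets in the 3 comparisons. With no replicate block high minus normal glucose turned to -0.22 for Rgs4 and -0.26 for Mcam, and Hsp70 minus normal glucose to -0.37 for Rgs4 and -0.20 for Kcnj8; with title numbers as the replicate block these were -0.30, -0.05, -0.45 and -0.10, with 0 genes called in all 3 comparisons by either. Values near 0 also changed sign for high minus normal glucose (Pdgfrb 0.06 without set 3; Abcc9 0.01 in sets 3 to 5 and 0.00 after quantile normalization), Hsp70 minus high glucose (Cspg4 -0.04 without set 3, Rgs4 0.06 in sets 3 to 5, Abcc9 0.03 with array weights) and Hsp70 minus normal glucose (Notch3 0.01 in sets 3 to 5, and Rgs5 0.12 and Notch3 0.08 with array weights). Leaving out 1 library, high minus normal glucose ran from -0.14 to 0.04 for Pdgfrb, -0.50 to 0.32 for Abcc9 and -0.08 to 0.34 for Mcam. Hsp70 minus high glucose ran from -0.29 to 0.06 for Rgs4, -0.03 to 0.05 for Cspg4 and -0.46 to 0.15 for Abcc9. Hsp70 minus normal glucose ran from -0.03 to 0.15 for Pdgfrb, -0.31 to 0.21 for Rgs5, -0.69 to 0.19 for Abcc9 and -0.24 to 0.17 for Notch3. The cause of these changes was not tested. Rgs5 kept its sign under all 21 alternatives in high minus normal glucose (0.57 to 1.05) and in Hsp70 minus high glucose (-1.16 to -0.71), as Cspg4 did in high minus normal glucose (-0.56 to -0.28) and Hsp70 minus normal glucose (-0.55 to -0.26). With median standard errors of 0.222, 0.198 and 0.222 log2 units, small differences were not detectable.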

Other observations

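Rgs5, Kcnj8 and Notch3 differed most between Hsp70 and high glucose in the same sets. In sets 2 and 4 the differences were -1.14 and -1.63 for Rgs5, -0.44 and -0.26 for Kcnj8 and -0.72 and -0.74 for Notch3. In sets 3 and 5 they were -0.43 and -0.61, -0.14 and -0.05, and -0.02 and 0.06. Mcam read higher with Hsp70 in sets 2, 4 and 5, by 0.15, 0.48 and 0.54, and gave -0.07 in set 3. The split of sets was noticed in these values and was not tested. The Abcc9 antisense gene 5330439B14Rik read 4.53 to 4.58 in set 3 and 1.59 to 3.61 elsewhere, lowest in Hsp70 replicate 3, the library in which Abcc9 was also lowest; it was looked up for its position and singled out here after its values were seen.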
